A study of Homo sapiens with 6 samples.

Results

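The 53 glycosyltransferase genes described here build and cap the sugar chains of mucins, other glycoproteins and some glycolipids. They are the genes among the 21293 of the deposited table whose symbols belong to 7 families: GALNT (17 genes), ST3GAL (6), ST6GAL (1), ST6GALNAC (6), ST8SIA (5), FUT (11) and MGAT (7). Their levels were measured by RNA-seq in H2087-LCC cells, human lung adenocarcinoma cells that the labels call a dormant metastatic derivative and that were obtained by in vivo selection from a single tumor cell line. There were 3 groups of 2 libraries: cells kept for 3 days with 2.5 μM SB505124 (SB), which blocks the kinase of the type I receptor for TGFβ, and cells kept with 100 pM TGFβ1 for 3 days or for 7 days, all in medium with 2% serum. SB was sampled only at 3 days, so 7 days of TGFβ and a longer culture cannot be told apart. No group was left untreated, so effects of added TGFβ1 and of the inhibitor cannot be told apart in comparisons with SB. A legend for these read counts gives the libraries of a group as technical replicates, and p-values then measure only the spread between these libraries. A comparison of the groups asks which of these enzymes respond to TGFβ and which of the responses change between 3 and 7 days.

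The GALNT enzymes start mucin-type O-glycans by placing N-acetylgalactosamine on serine or threonine. Sialyltransferases of the ST3GAL, ST6GAL, ST6GALNAC and ST8SIA families end chains with sialic acid, and fucosyltransferases of the FUT family add fucose to the antennae or to the core. Most of the MGAT enzymes set how many antennae an N-glycan carries. In airway epithelium and in adenocarcinomas derived from it, these enzymes are known for shaping mucin coats and the ligands that lectins read.

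The deposited values are normalized counts in whole numbers, which summed to between 34306283 and 36340734 per library. They were compared on the log2(value + 1) scale with limma, and a gene is named as called where its Benjamini-Hochberg adjusted p over all 14395 tested genes was under 0.05. CDH1, SMAD7 and FN1, which are known to respond to TGFβ, followed the labels in every library. CDH1, which encodes E-cadherin, had normalized counts of 371 and 635 in SB against at most 28 with TGFβ, and SMAD7, a feedback inhibitor of the pathway, had 112 and 79 against at least 747. FN1, which encodes fibronectin, had 162290 and 175381 against at least 358867. The epithelial markers KRT7, KRT8, KRT18, KRT19 and EPCAM were at 2988 or more in every library. That floor does not show whether they changed between the groups. NKX2-1, a lung lineage factor, was at 2784 and 2908 in SB and between 712 and 857 with TGFβ. Among the markers of other cells reported here, PTPRC and CD3E were at 4 or less, CDH5 and VWF at 20 or less and PECAM1 between 36 and 67, whereas CD68, a lysosomal protein of macrophages, was between 4368 and 5113 in all groups. The SB libraries differed from each other more than the others did. Of the 11389 genes whose mean was 100 or more, 5.27% differed by over 0.5 on the log2 scale between the SB libraries, against 2.48% at 3 days and 1.11% at 7 days. Among the 37 tested glycosyltransferases, 8 differed by over 0.5 between the SB libraries, against 2 at 3 days and 3 at 7 days. The 37 include 9 genes with a mean under 100, so these counts and the shares above are not on the same footing.

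Of the 53 genes, 37 passed the filter of a mean normalized count of at least 10, and the other 16 did not exceed 11 in any library. The tested genes spanned 3 orders of magnitude. Per kilobase of exon, GALNT6 had the highest mean level over the 6 libraries (2601 normalized counts per kb), followed by GALNT10 (2162), GALNT2 (1394), MGAT4B (1144) and MGAT2 (1078). GALNT4 (2.57 per kb) and MGAT4A (2.82 per kb) were the lowest of those tested. Other genes share 93.4% of the exon bases of GALNT4 and 92.0% of those of MGAT2, and the effect on their levels was not tested. MGAT4B and MGAT2, neighbors in this order, traded places among the libraries, as did GALNT6 and GALNT10, which was the higher of the pair in the second 7-day library.

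**Figure D1:**
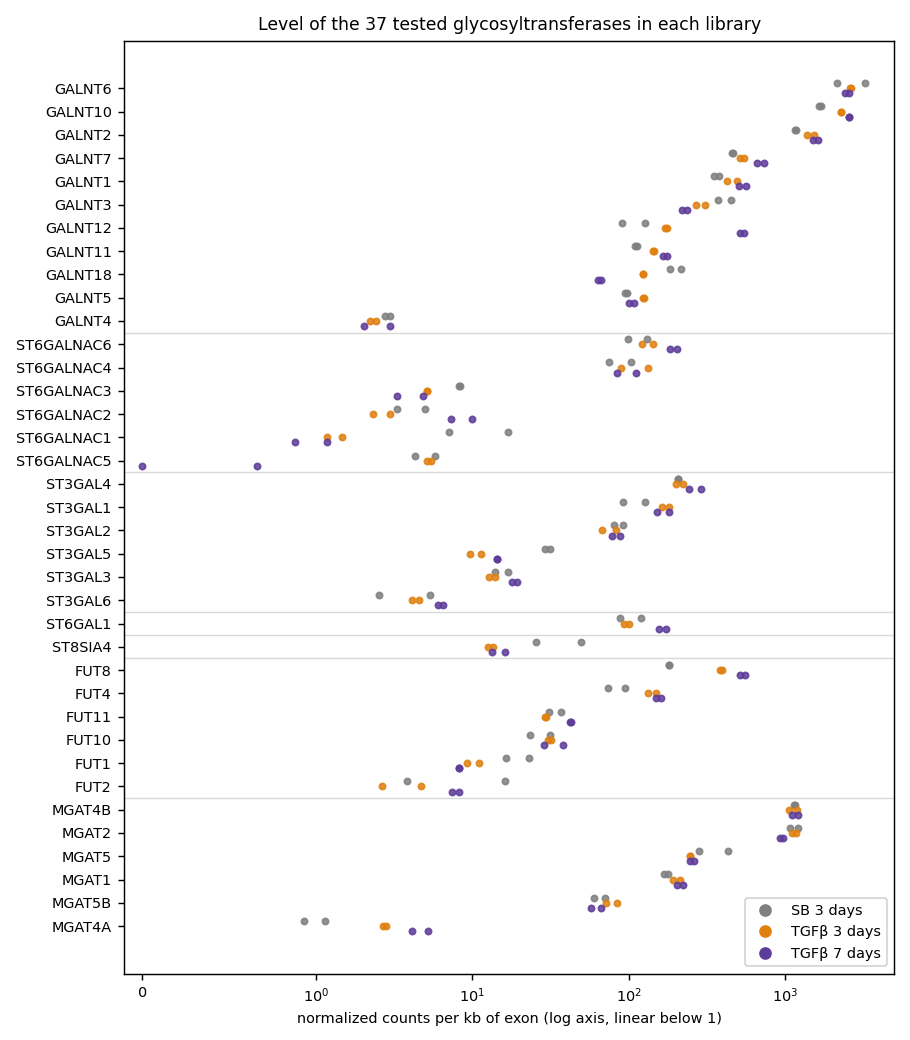
Level of each of the 37 tested glycosyltransferases in each of the 6 libraries, as normalized counts per kilobase of exon on a log axis that is linear below 1, grouped by family and ordered by mean. The GALNT family reached the highest levels, with GALNT6, GALNT10 and GALNT2 above 1000 per kb in every library, and ST6GALNAC5 dropped to 0 in 1 of the 7-day libraries.

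After 3 days of TGFβ, 10 of the 37 tested genes were called higher than in SB and 7 lower, where 14.9% of all tested genes were called higher and 14% lower. These are 27.0% and 18.9% of the glycosyltransferases tested. After 7 days, 15 were called higher (40.5%, against 27.7% of all genes) and 10 lower (27.0%, against 26.9%). Between 7 and 3 days, 10 were called higher at 7 days (27.0%, against 17% of all genes) and 3 lower (8.11%, against 16.2%). The median log2 fold change of the 37 genes was 0.02 at 3 days, 0.27 at 7 days and 0.13 between the times, and over all genes these medians were -0.02, -0.00081 and 0.02. The comparisons share the SB libraries, and fewer cells that express a gene and less of its RNA per cell cannot be told apart in these bulk samples. In all, 28 of the 37 genes were called in at least 1 comparison. The share of all genes called was not computed for this count or for the fits without 1 library that follow. Without the second SB library, the counts were 9 higher and 5 lower at 3 days and 17 higher and 9 lower at 7 days. The number called higher at 3 days dropped to 6 without the first 3-day library, and the number called higher at 7 days than at 3 days dropped to 5 without any 1 of the 4 TGFβ libraries.

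**Figure D2:**
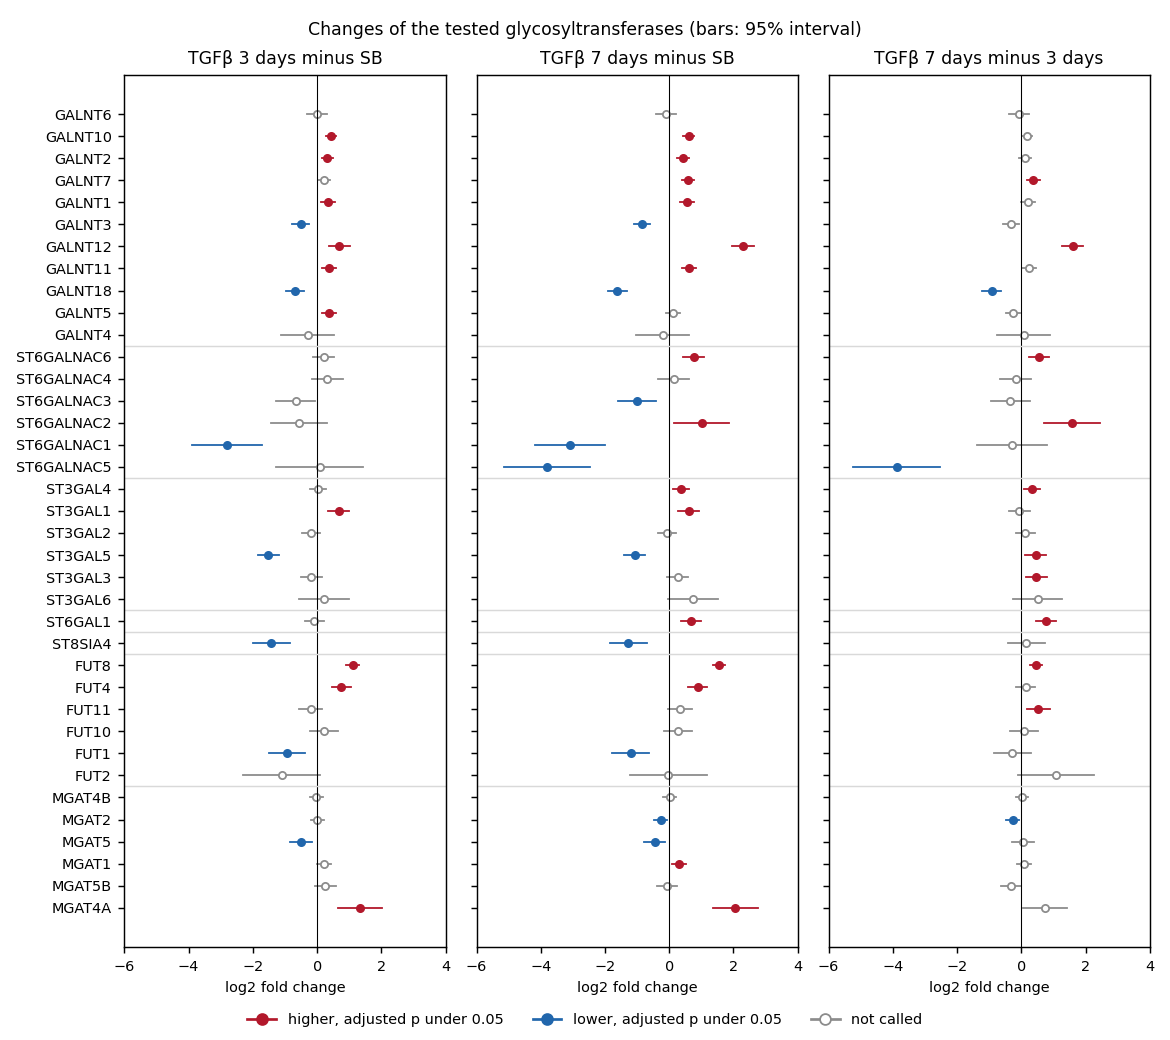
Log2 fold change of each tested glycosyltransferase in the 3 comparisons, with bars for the 95% interval from limma. Red marks genes called higher and blue genes called lower. GALNT12, FUT8 and MGAT4A were called higher against SB at both times with changes above 1 at 7 days, and ST6GALNAC5 was called lower at 7 days against both other groups.

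Of the called genes, 5 had a mean of at least 100 and a change of at least 1 on the log2 scale in some comparison: FUT8, GALNT12, GALNT18, ST3GAL5 and ST8SIA4. Their promoters are shown so that the direction of each change can be set beside the sequence upstream of the start. The RefSeq promoter table used here holds an entry for 36 of the 53 genes and for 4 of these 5. Each of the 4 sequences matched GRCh37 at 1 place. The 250 bases before the start are given 5′ to 3′ on the strand of the gene. Capitals mark the letters CAGAC (SMAD box), CACCTG (E-box) and TGANTCA (AP-1) on either strand, so an E-box on the other strand reads CAGGTG. FUT8 (chr14:65877060-65877309, plus strand) held each of the 3 motifs 1 time, GALNT12 (chr9:101569702-101569951, plus strand) held 1 E-box, ST3GAL5 (chr2:86116114-86116363, minus strand, before a start inside the annotated gene) held 1 CAGAC, and ST8SIA4 (chr5:100238987-100239236, minus strand) held none.
FUT8: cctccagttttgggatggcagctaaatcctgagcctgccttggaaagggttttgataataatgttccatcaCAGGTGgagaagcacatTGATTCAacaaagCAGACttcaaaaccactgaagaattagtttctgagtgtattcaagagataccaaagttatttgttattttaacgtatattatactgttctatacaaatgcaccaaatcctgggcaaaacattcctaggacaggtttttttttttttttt
GALNT12: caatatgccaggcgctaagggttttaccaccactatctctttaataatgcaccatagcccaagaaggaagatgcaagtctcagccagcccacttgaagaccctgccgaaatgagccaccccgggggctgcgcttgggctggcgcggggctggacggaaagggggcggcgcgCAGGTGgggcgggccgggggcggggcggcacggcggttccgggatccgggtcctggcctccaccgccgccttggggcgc
ST3GAL5: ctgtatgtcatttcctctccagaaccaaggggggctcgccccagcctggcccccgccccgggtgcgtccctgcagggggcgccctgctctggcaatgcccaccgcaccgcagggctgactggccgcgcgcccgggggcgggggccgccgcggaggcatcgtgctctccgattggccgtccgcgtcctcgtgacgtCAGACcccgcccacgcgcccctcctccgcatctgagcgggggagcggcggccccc
ST8SIA4: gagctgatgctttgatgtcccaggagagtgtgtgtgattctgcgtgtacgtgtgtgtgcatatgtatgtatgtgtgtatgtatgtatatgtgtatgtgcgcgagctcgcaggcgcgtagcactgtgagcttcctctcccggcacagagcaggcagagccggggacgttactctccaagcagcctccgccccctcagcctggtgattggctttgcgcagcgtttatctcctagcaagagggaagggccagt
In windows of 300 bases, which add 50 bases after the start, CAGAC was present in 45.3% of 35116 RefSeq promoters and in 18 of the 36 glycosyltransferase promoters. CACCTG was present in 20.6% and in 10 of 36, and TGANTCA in 7.71% and in 4 of 36. The motifs do not overlap each other in these 4 sequences. A match describes the letters only.

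Among the GALNT enzymes, which start mucin-type O-glycans, 6 of the 11 tested were called higher than in SB after 3 days and 2 lower, and the same numbers were called after 7 days. These are 54.5% and 18.2% of the 11. Of all tested genes, 14.9% were called higher and 14% lower at 3 days, and 27.7% and 26.9% at 7 days. GALNT12, on chromosome 9 from 101569952 to 101612363, had normalized counts of 286 and 406 in SB, 559 and 543 at 3 days and 1626 and 1723 at 7 days. The groups did not overlap at any step, and the 7-day libraries stood far above the rest. Its log2 fold change at 3 days against SB was 0.69 (standard error 0.15, limma adjusted p = 0.00498) and 2.29 at 7 days (adjusted p = 1.96e-07). Between the times it was 1.60 (adjusted p = 3.28e-05). An unnamed gene on the opposite strand shares 20.9% of its exon bases, and the library kit does not mark strand. With no filter on low values, the 3-day call ended (adjusted p = 0.0568), and without the first SB library the 3-day value was 0.44, still called (adjusted p = 0.0225).

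GALNT18, on chromosome 11 from 11292424 to 11643552, went the other way. It had 669 and 784 in SB, 446 and 451 at 3 days and 243 and 230 at 7 days. Each step was downward without overlap, with log2 fold changes of -0.69 (standard error 0.13, limma adjusted p = 0.00203), -1.61 at 7 days against SB (adjusted p = 1.23e-06) and -0.92 between the times (adjusted p = 0.000453). GALNT3, an enzyme known for glycosylating the phosphate hormone FGF23, was also called lower, from 2057 and 1723 in SB to 1406 and 1229 at 3 days and 1009 and 1091 at 7 days. Its log2 fold change at 3 days was -0.52 (adjusted p = 0.00591) and -0.84 at 7 days (adjusted p = 8.74e-05). Without the second 3-day library the 3-day value was -0.42 (adjusted p = 0.0511).

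The abundant GALNT enzymes moved by less. GALNT6, the highest per length, had 15874 and 23811 in SB, 19012 and 19423 at 3 days and 18788 and 17766 at 7 days. The TGFβ libraries lay between the SB libraries, and the log2 fold change at 3 days was -0.02 (95% interval -0.33 to 0.30) and -0.09 at 7 days (-0.40 to 0.22), neither called. Without the first SB library these values were -0.31 and -0.38, and without the second they were 0.28 and 0.20. The direction at both times thus depended on which SB library was kept. GALNT10 was called higher at both times, from 17399 and 17790 in SB to 23754 and 23741 at 3 days and 26714 and 26767 at 7 days, with log2 fold changes of 0.43 (limma adjusted p = 0.000932) and 0.60 (adjusted p = 3.26e-05).

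GALNT1, GALNT2 and GALNT11 were likewise called higher at both times, with log2 fold changes of 0.32 to 0.36 for the 3-day group and 0.43 to 0.61 for the 7-day group. GALNT7, an enzyme that prefers peptides already carrying N-acetylgalactosamine, was called only at 7 days (0.59 against SB, limma adjusted p = 0.000146), and GALNT5 only at 3 days (0.37, adjusted p = 0.0163). The smaller 3-day calls depended on single libraries. Without the first 3-day library the values were 0.23 for GALNT1 (adjusted p = 0.256), 0.35 for GALNT11 (adjusted p = 0.0987) and 0.38 for GALNT5 (adjusted p = 0.0779), and without the second they were 0.25 for GALNT2 (adjusted p = 0.124), 0.38 for GALNT11 (adjusted p = 0.065) and 0.35 for GALNT5 (adjusted p = 0.0852). Without the second SB library they were 0.28 for GALNT1 (adjusted p = 0.114) and 0.34 for GALNT5 (adjusted p = 0.0505). GALNT4, at 11 to 16 in every library, was not called, and 93.4% of its exon bases lie also in the readthrough gene POC1B-GALNT4. Summed per kilobase, the 17 GALNT genes came to 6761 and 7833 in SB, 8154 and 8214 at 3 days and 8977 and 8885 at 7 days. GALNT8, GALNT9, GALNT13, GALNT14, GALNT15 and GALNT16 were not tested, with GALNT16 the highest at 3 to 10.

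Of the sialyltransferases, ST3GAL5 and ST8SIA4 had the largest called falls for a mean of 100 or more. ST3GAL5, on chromosome 2 from 86064243 to 86132322, makes the ganglioside GM3 from lactosylceramide. It had normalized counts of 479 and 511 in SB, 187 and 157 at 3 days and 234 and 234 at 7 days. All TGFβ libraries were below the SB libraries, and the 7-day libraries lay between the other groups. The log2 fold change at 3 days was -1.52 (standard error 0.15, limma adjusted p = 1.22e-05) and -1.08 at 7 days (adjusted p = 8.38e-05). Its value between the times was 0.45 (adjusted p = 0.0374), the only glycosyltransferase called lower than SB at both times and higher at 7 days than at 3 days. That last call ended with the replicate number as a block (adjusted p = 0.0536), without the second 3-day library (0.32, adjusted p = 0.239) and without either 7-day library (0.45 each, adjusted p = 0.149 and 0.155).

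ST8SIA4, a polysialyltransferase known for modifying the adhesion molecule NCAM, lies on chromosome 5 from 100142637 to 100238986. It had 200 and 389 in SB, 107 and 99 at 3 days and 104 and 126 at 7 days. The TGFβ groups overlapped each other and were both below SB. The log2 fold change at 3 days was -1.43 (standard error 0.26, limma adjusted p = 0.00167) and -1.28 at 7 days (adjusted p = 0.00156). Without the second SB library it was -0.95 and -0.80, still called. It was the only tested gene of its family. ST8SIA1, ST8SIA2, ST8SIA5 and ST8SIA6 were at 11 or less in every library.

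The other ST3GAL enzymes add sialic acid to the galactose at the end of O-glycans and N-glycans. ST3GAL1, which acts on the core 1 O-glycan, was called higher at both times, with 808 and 1123 in SB, 1444 and 1601 at 3 days and 1582 and 1342 at 7 days (log2 fold changes 0.67 and 0.61, limma adjusted p = 0.00506 and 0.00418). Without the first SB library these values were 0.44 and 0.38, still called (adjusted p = 0.0362 and 0.0397). Its 3-day call ended with no filter on low values (adjusted p = 0.0664) and without the trend on mean expression (adjusted p = 0.0577). ST3GAL4, the highest of the family per length, had 1235 and 1231 in SB, 1192 and 1319 at 3 days and 1723 and 1457 at 7 days. Only the 7-day libraries stood above the others. The value was 0.02 at 3 days (95% interval -0.22 to 0.27), 0.36 at 7 days (adjusted p = 0.0153) and 0.34 between the times (adjusted p = 0.0351). Without the first 7-day library the last 2 were 0.24 (adjusted p = 0.187) and 0.22 (adjusted p = 0.311), and the value between the times was 0.26 without the first 3-day library (adjusted p = 0.212) and 0.41 without the second (adjusted p = 0.0522). ST3GAL3 was called only between the times (0.46, adjusted p = 0.0338), with adjusted p-values from 0.0709 to 0.186 without any 1 of the 4 TGFβ libraries. ST3GAL2 and ST3GAL6 were not called.

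ST6GAL1 adds sialic acid to the galactose ends of N-glycans and was the only gene of its family in the table. It had 980 and 1342 in SB, 1047 and 1113 at 3 days and 1753 and 1928 at 7 days. The 3-day libraries lay between the SB libraries and both 7-day libraries stood above all others. The log2 fold change at 3 days was -0.09 (95% interval -0.39 to 0.21), 0.68 at 7 days (standard error 0.14, limma adjusted p = 0.00129) and 0.77 between the times (adjusted p = 0.00172). ST6GALNAC6, the highest ST6GALNAC gene per length, had a similar course, with 526 and 701 in SB, 646 and 762 at 3 days and 1085 and 973 at 7 days. On the log2 scale its change at 3 days was 0.21, not called (0.0013 without the first SB library and 0.41 without the second, neither called), with 0.76 at 7 days (adjusted p = 0.00106) and 0.55 between the times (adjusted p = 0.015). An unnamed gene on the same strand holds 47.0% of its exon bases. The call between the times ended without the first 3-day library (0.43, adjusted p = 0.105) and without the first 7-day library (0.47, adjusted p = 0.111).

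The other ST6GALNAC genes were at low levels. ST6GALNAC1, which makes the sialyl-Tn antigen, had 24 and 58 in SB, 4 and 5 at 3 days and 4 and 3 at 7 days. Its log2 fold change at 3 days was -2.81 (standard error 0.50, limma adjusted p = 0.00123) and -3.10 at 7 days (adjusted p = 0.000264). ST6GALNAC5, which acts on gangliosides, had 35 and 26 in SB, 31 and 33 at 3 days and 4 and 0 at 7 days. SB and the 3-day group overlapped (0.08, not called), and the 7-day libraries were below all others, by -3.80 against SB (adjusted p = 0.000284) and -3.88 against 3 days (adjusted p = 0.000889). These low counts make the size uncertain: a pseudocount of 5 or 0.5 gave -2.39 or -4.35 against SB. ST6GALNAC3 was called lower at 7 days (59 and 60 in SB, 24 and 35 at 7 days, log2 fold change -1.01, adjusted p = 0.008), and without the first 7-day library it was -0.75 (adjusted p = 0.0872).

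ST6GALNAC2, which acts on O-glycans, was called higher at 7 days than in SB (10 and 15 against 22 and 30, log2 fold change 1.01, limma adjusted p = 0.0471) and than at 3 days (7 and 9, 1.58, adjusted p = 0.0103). Another gene on the same strand holds 39.8% of its exon bases. The call against SB ended without the first SB library (0.74, adjusted p = 0.169), without any 1 TGFβ library (adjusted p from 0.0526 to 0.254) and with a pseudocount of 0.5 (adjusted p = 0.0506), and the call between the times ended without the first 3-day library (1.42, adjusted p = 0.0633) and without the second 7-day library (1.36, adjusted p = 0.0983). ST6GALNAC4 was not called in any comparison.

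**Figure D3:**
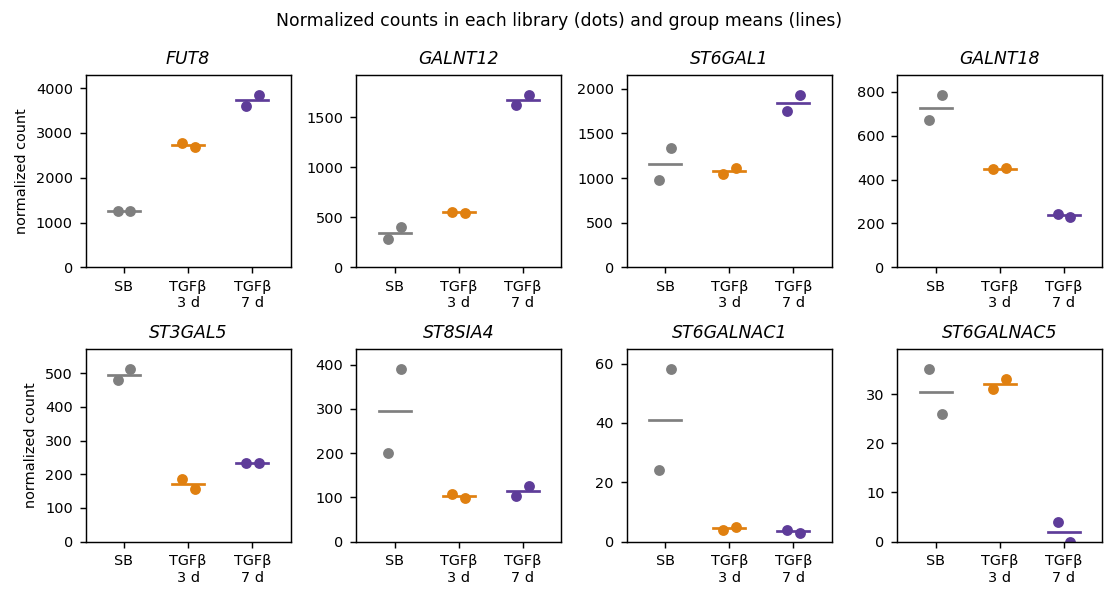
Normalized counts of 8 glycosyltransferases in each library, with a dot per library, a line at the group mean and a y axis that starts at 0 in each panel. FUT8 and GALNT12 stepped upward and GALNT18 downward at each time, ST6GAL1 was higher and ST6GALNAC5 lower only at 7 days, and ST3GAL5, ST8SIA4 and ST6GALNAC1 were below SB at both times.

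Among the fucosyltransferases, FUT8 and FUT4 were called higher than in SB at both times and FUT1 lower. FUT8, on chromosome 14 from 65877310 to 66210839, is the enzyme that adds the core fucose of N-glycans. It had normalized counts of 1268 and 1267 in SB, 2772 and 2681 at 3 days and 3607 and 3843 at 7 days. The groups were far apart next to the gap within each of them. The log2 fold change at 3 days was 1.10 (standard error 0.09, limma adjusted p = 2.17e-06), 1.55 at 7 days (adjusted p = 5.39e-08) and 0.45 between the times (adjusted p = 0.00282). Each of the 3 calls held under every alternative tried. The antisense gene FUT8-AS1 shares 11.8% of its exon bases. Per kilobase, FUT8 made up 51.7% and 49.8% of the summed FUT level in SB and 67.6% and 68.9% at 7 days, while that sum went from 351 and 365 to 765 and 799.

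FUT4, which makes the Lewis x structure on antennae, had 566 and 442 in SB, 894 and 798 at 3 days and 965 and 896 at 7 days (log2 fold changes 0.75 and 0.89, limma adjusted p = 0.00135 and 0.000174). Of its exon bases, 10.1% lie in exons of PIWIL4 on the same strand. FUT1, which makes the H antigen of blood groups, had 71 and 100 in SB, 40 and 48 at 3 days and 36 and 36 at 7 days (-0.93 and -1.20, adjusted p = 0.0184 and 0.00194). Its 3-day value was -0.68 without the second SB library (adjusted p = 0.0975) and -0.80 without the first 3-day library (adjusted p = 0.123). FUT2, its close relative, had 13 and 55 in SB, 9 and 16 at 3 days and 25 and 28 at 7 days. The SB libraries bracketed the TGFβ libraries but for 1, and no comparison was called. FUT11 was called only between the times (0.53, adjusted p = 0.0294), with adjusted p-values from 0.105 to 0.149 without any 1 TGFβ library. FUT10 was not called. FUT3, FUT5, FUT6, FUT7 and FUT9 were at 3 or less in every library, and FUT6 was listed at 0 in each of them. FUT3, FUT5 and FUT6 are similar in sequence, and how far reads tell them apart was not tested.

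Of the 6 tested MGAT genes, which set the branching of N-glycans, 1 was called higher and 1 lower at 3 days (16.7% each, against 14.9% and 14% of all genes) and 2 were called higher and 2 lower at 7 days (33.3% each, against 27.7% and 26.9%), shares near those of all genes. The summed level of the family was 2877 and 2894 normalized counts per kb in SB and 2690 and 2586 at 7 days. MGAT4B, which starts an additional antenna and was the highest per length, had 6323 and 6269 in SB, 5861 and 6572 at 3 days and 6619 and 6063 at 7 days. All groups overlapped, and the 95% interval of its log2 fold change was -0.21 to 0.17 at 3 days and -0.18 to 0.20 at 7 days. MGAT4A, a second enzyme for the same antenna at a much lower level, was called higher, from 11 and 9 in SB to 27 and 26 at 3 days and 40 and 50 at 7 days. Its log2 fold change at 3 days was 1.33 (standard error 0.31, limma adjusted p = 0.00784) and 2.06 at 7 days (adjusted p = 0.000181). Without the first 3-day library the 3-day value was 1.30 (adjusted p = 0.0529).

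MGAT5, whose branch is often extended and bound by galectins, was called lower, with 2481 and 3778 in SB, 2156 and 2154 at 3 days and 2284 and 2179 at 7 days (log2 fold changes -0.51 and -0.46, limma adjusted p = 0.0269 and 0.0239). All TGFβ libraries were below SB, but the second SB library set the size: without it the values were -0.20 (adjusted p = 0.151) and -0.15 (adjusted p = 0.203), and without the first they were -0.81 and -0.76. The calls also ended without the first or second library of the TGFβ group compared, with values from -0.51 to -0.42 and adjusted p-values from 0.0592 to 0.105. MGAT1, which starts complex N-glycans, was called higher at 7 days (0.30, adjusted p = 0.0221), and without the first SB or the first 7-day library it was 0.25 (adjusted p = 0.0922) and 0.23 (adjusted p = 0.184). MGAT2, the enzyme of the next step, was called lower at 7 days than in SB and than at 3 days (-0.27 each, adjusted p = 0.0299 and 0.0461). With the replicate number as a block, neither MGAT2 call held (adjusted p = 0.0524 and 0.0776). The call against SB ended without the first SB library (-0.17, adjusted p = 0.156) and without the first or second 7-day library (-0.24 and -0.29, adjusted p = 0.162 and 0.0906), and that between the times without any 1 TGFβ library (adjusted p from 0.0998 to 0.229). A gene on the opposite strand shares 92.0% of its exon bases. MGAT5B was not called and MGAT3 was at 5 or less.

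The other genes of these pathways were taken from 10 lists of 79 symbols, of which 74 were in the table and 58 were tested. After 3 days of TGFβ, 11 of the 58 were called higher and 10 lower, after 7 days 18 and 14, and between the times 5 and 7. These shares were 19.0% and 17.2% at 3 days, 31.0% and 24.1% at 7 days (all near the background given above) and 8.62% and 12.1% between the times, below the 17% and 16.2% of all genes. The counts of single lists that follow, over 3 to 15 genes each, describe those genes only. Their median log2 fold change was 0.06 at 3 days, 0.06 at 7 days and 0.05 between the times. Of the 5 tested genes of O-glycan cores, 1 was called higher and 1 lower at 3 days, and 2 higher and 1 lower at 7 days. These are 20% each at 3 days, against 14.9% and 14% of all genes. At 7 days they are 40% and 20%, against 27.7% and 26.9%. C1GALT1C1, the chaperone of the core 1 enzyme, was called higher at 7 days, with 904 and 869 in SB, 1077 and 1021 at 3 days and 1866 and 1913 at 7 days (1.09 against SB, limma adjusted p = 2.71e-06). GCNT1, the core 2 enzyme, was called higher at both times (0.44 and 0.42, adjusted p = 0.0103 and 0.00731). Without the first 3-day library its 3-day value was 0.38 (adjusted p = 0.108), and without the second 7-day library its 7-day value was 0.42 (adjusted p = 0.0516). B3GNT6, the core 3 enzyme, was called lower, from 164 and 267 in SB to 61 and 69 at 3 days and 56 and 55 at 7 days (-1.67 and -1.90, adjusted p = 0.000286 and 4.8e-05).

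Of the 15 tested genes that extend antennae, 5 were called higher and 4 lower at 7 days (33.3% and 26.7%, near the 27.7% and 26.9% of all genes). B3GALT4, which extends gangliosides, had 15 and 14 in SB and 56 and 48 at 7 days (1.77, limma adjusted p = 0.000425). B3GNT7 was called lower at both times (-1.41 and -0.99, adjusted p = 3.94e-05 and 0.000261), and GCNT2, which branches antennae into the I antigen, had 3202 and 3263 in SB, 3266 and 2935 at 3 days and 1511 and 1518 at 7 days (-1.09 against SB, adjusted p = 1.39e-06). Of 8 tested genes that trim N-glycans, 2 were called higher and 4 lower at 7 days. These are 25% and 50%, against 27.7% and 26.9% of all genes. Both Golgi mannosidases II were among the lower: MAN2A2 by -1.01 at 3 days and -1.24 at 7 days (adjusted p = 6.62e-05 and 5.81e-06) and MAN2A1 by -0.39 and -0.72 (adjusted p = 0.00473 and 2.41e-05). MAN1B1 was called higher by 0.40 and 0.65 (adjusted p = 0.0159 and 0.000322), and its 3-day value was 0.37 without the second SB library (adjusted p = 0.067) and 0.27 without the second 3-day library (adjusted p = 0.143).

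Of 5 genes that supply sialic acid, 2 were called higher and 1 lower at 7 days. These are 40% and 20%, against 27.7% and 26.9% of all genes. The transporter SLC35A1 was higher by 0.42 at 3 days and 0.47 at 7 days (limma adjusted p = 0.0418 and 0.0133), GNE, which starts sialic acid synthesis, by 0.25 at 7 days (adjusted p = 0.0261), and NANS was lower by -0.30 (adjusted p = 0.02). The 7-day calls ended without the second SB library for SLC35A1 (0.32, adjusted p = 0.0805), without the first for GNE and NANS (0.23 and -0.25, adjusted p = 0.0696 and 0.0738), and without the second 7-day library for all 3 (adjusted p = 0.128, 0.169 and 0.127). Without the first 7-day library, the calls of GNE and NANS ended as well (adjusted p = 0.0855 and 0.0734). The 3-day call of SLC35A1 ended without any 1 library but the first SB library (adjusted p from 0.0625 to 0.191). Of 5 genes that supply GDP-fucose, the donor of FUT8, GMDS, which starts the main route, was lower at 7 days (604 and 665 in SB, 343 and 370 at 7 days, -0.83, adjusted p = 0.00035), whereas FPGT of the salvage route and the transporter SLC35C1 were higher (0.66 and 0.41, adjusted p = 0.00213 and 0.0133). The SLC35C1 value was 0.33 without the second SB library (adjusted p = 0.0732) and 0.33 without the first 7-day library (adjusted p = 0.124). None of the 5 was called at 3 days, where 14.9% of all genes were called higher and 14% lower. At 7 days 40% were called higher and 20% lower, against 27.7% and 26.9% of all genes.

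Of 9 genes that supply UDP sugars, 11.1% were called higher at 3 days, against 14.9% of all genes, and none lower, against 14%. At 7 days 11.1% were called each way, against 27.7% and 26.9% of all genes. GNPNAT1 was the only one called higher at 3 days, with 7022 and 5859 in SB, 14269 and 13298 at 3 days and 7069 and 7469 at 7 days (1.10, limma adjusted p = 4.96e-06). UAP1, a later enzyme of that route, was called lower at 7 days (-0.72, adjusted p = 0.000146), and UGP2 higher (0.27, adjusted p = 0.0175, and 0.22 with adjusted p = 0.163 without the second 7-day library). Of 4 tested sialidases and fucosidases, none was called higher and 50% lower at 3 days, against 14.9% and 14% of all genes. At 7 days 25% were called each way, against 27.7% and 26.9%. FUCA1 was called lower at 3 days (403 and 637 in SB, 230 and 238 at 3 days, -1.11, limma adjusted p = 0.000957). NEU3 was called lower at both times (-0.33 and -0.38, adjusted p = 0.0482 and 0.0135) and NEU1 higher at 7 days (0.41, adjusted p = 0.00477). The NEU1 value was 0.35 without the first 7-day library (adjusted p = 0.0616). The NEU3 calls ended without the second SB library (-0.24 and -0.29, adjusted p = 0.178 and 0.0671) and without either library of the TGFβ group compared (adjusted p from 0.0634 to 0.249), and at 3 days also without either 7-day library (adjusted p = 0.0846 and 0.0855).

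Of the 3 carrier mucins tested, 33.3% were called higher and 66.7% lower at 3 days, against 14.9% and 14% of all genes. At 7 days 33.3% were called each way, against 27.7% and 26.9%. MUC1 was called lower at both times. It had 448 and 1289 in SB, 169 and 177 at 3 days and 330 and 330 at 7 days (-2.13 and -1.20, limma adjusted p = 0.0006 and 0.0105), and without the second SB library the values were -1.37 and -0.44, still called (adjusted p = 0.000235 and 0.035), and without the first -2.89 and -1.96. Its 7-day call ended with no filter on low values (adjusted p = 0.108) and without the trend on mean expression (adjusted p = 0.0821). MUC4 was called lower at 3 days (-1.38, adjusted p = 0.0212) and was at -2.17 without the first SB library, -0.59 without the second (adjusted p = 0.135) and -1.21 without the first 3-day library (adjusted p = 0.0803). MUC13, at 5 to 22, was called higher at both times (1.68 and 1.20, adjusted p = 0.0155 and 0.04), and the values were 1.42 without the first 3-day library (adjusted p = 0.134) and 0.74 without the second 7-day library (adjusted p = 0.311). Its 7-day call also ended without either SB library (adjusted p = 0.08 and 0.0725) and without the first 3-day library (adjusted p = 0.0561). Of the 4 tested galectins, which bind the galactose of these chains, 50% were called higher and 25% lower at 3 days, against 14.9% and 14% of all genes. At 7 days 50% were called higher and none lower, against 27.7% and 26.9%. LGALS3 and LGALS8 were called higher at both times (0.32 and 0.51, and 0.39 and 0.24). LGALS9 was called lower at 3 days (-1.78, limma adjusted p = 0.00194, and -1.16 without the second SB library). Without the first 3-day library the 3-day values were 0.32 for LGALS3 (adjusted p = 0.0704) and 0.31 for LGALS8 (adjusted p = 0.086), and without the second it was 0.32 for LGALS3 (adjusted p = 0.0583). The 7-day call of LGALS8 (adjusted p = 0.0387) ended without any 1 SB or 7-day library (adjusted p from 0.0744 to 0.187). Of the older names of the GALNT family, GALNTL5, GALNTL6 and WBSCR17 were in the table, at 5 or less in every library.

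**Figure D4:**
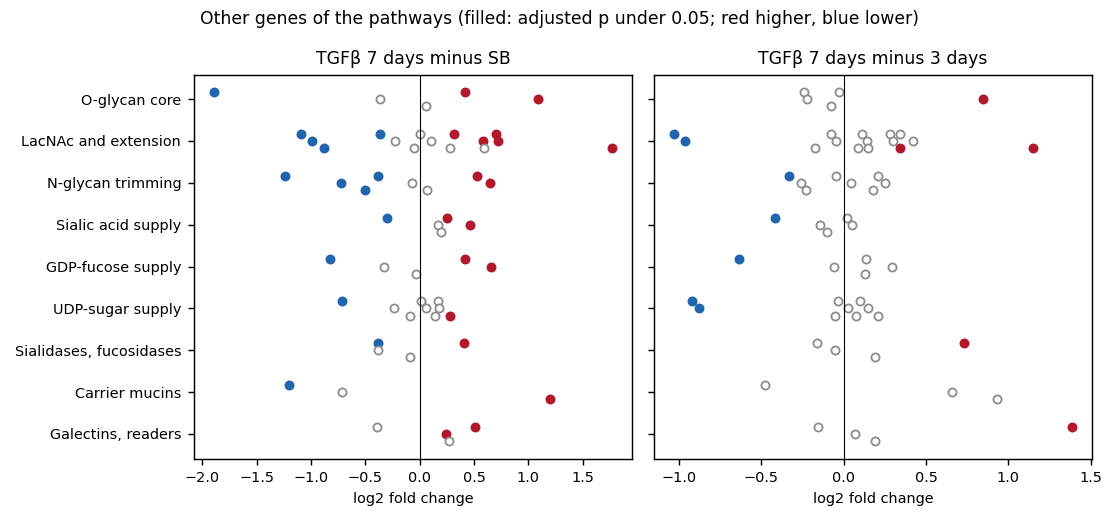
Log2 fold change of the tested genes of 9 pathway lists at 7 days of TGFβ against SB and against 3 days, with a circle per gene, filled where called (red higher, blue lower). Called genes lay on both sides of 0 at 7 days against SB in 8 of the 9 lists.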

How the data were processed

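RNA from H2087-LCC cells was sequenced in 6 libraries, 2 for each of the 3 groups, which were taken from the labels. Libraries were made with a kit that does not mark strand. The authors aligned reads to hg19 with STAR, counted them on genes with HTSeq 0.6.1p1 and normalized the counts with DESeq2 (given as 3.4 in the submitters' processing notes). The deposited values, recorded as score, are these normalized counts rounded to whole numbers by the authors, so they are not reads and no counting interval was computed. Library totals of 34306283 to 36340734 reflect the normalization, and the depth behind each value is unknown.

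From these values, log2(value + 1) was fitted for the 14395 genes whose mean was 10 or more in limma 3.58.1 (R 4.3.3, empirical Bayes with a trend), with group as the only term and all 6 libraries in the fit. P-values were adjusted by the Benjamini-Hochberg method over all genes, with a threshold of 0.05, for 3 comparisons. An exact permutation test of 2 against 2 libraries cannot go below 0.333 (two-sided), so none was used. The steps were tested on simulated data. The genes and lists were chosen with earlier results of these data known. Values in every library were to be given for called genes with a mean of at least 100 and an absolute log2 fold change of at least 1, for genes called in opposite directions, and for the highest gene per length in each family, and up to 3 called genes were named per pathway list. The other genes with library values were chosen after their values were seen. Lengths (union of exons) and shared exon bases came from GENCODE on GRCh37, in which all 53 genes were found, and promoters from RefSeq. Alternatives were other pseudocounts, filters, scalings, variance models, a replicate block and each library left out in turn. Leaving out a library leaves a lone library that is assumed to vary like the other groups. Some marker genes are not reported here.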

Additional observations from a re-analysis of the deposited data

Results flagged for a closer look

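For the genes below, the change against SB at 7 days differed from the change at 3 days. Since both changes are taken against the same SB libraries, the test of this difference is the comparison of 7 days with 3 days in limma (adjusted p under 0.05 over all genes), and each value is a log2 fold change, 7 days minus 3 days. Among the glycosyltransferases, the values above 0 were 1.60 for GALNT12, 1.58 for ST6GALNAC2, 0.77 for ST6GAL1, 0.55 for ST6GALNAC6, 0.53 for FUT11, 0.46 for ST3GAL3, 0.45 for FUT8, 0.45 for ST3GAL5, 0.38 for GALNT7 and 0.34 for ST3GAL4. The values below 0 were -3.88 for ST6GALNAC5, -0.92 for GALNT18 and -0.27 for MGAT2. Of these 13 values, 5 kept their call under every alternative tried, those of FUT8, GALNT12, GALNT18, ST6GAL1 and ST6GALNAC5. GALNT7 was at 0.34 without the second 3-day library (adjusted p = 0.0553) and at 0.30 without the second 7-day library (adjusted p = 0.107).

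Among the named genes of the pathway lists, the values were 1.39 for LGALS9, 1.15 for B3GALT4, 0.85 for C1GALT1C1 and 0.73 for FUCA1, and on the other side -1.03 for GCNT2, -0.92 for GNPNAT1, -0.88 for UAP1, -0.63 for GMDS, -0.42 for NANS and -0.33 for MAN2A1. B3GALT4 was at 0.97 without the first 3-day library (adjusted p = 0.105), at 1.04 without the first 7-day library (adjusted p = 0.107) and at 1.26 without the second (adjusted p = 0.0601). MAN2A1 was at -0.28 without the first 3-day library (adjusted p = 0.0958) and at -0.27 without the first 7-day library (adjusted p = 0.131), and GMDS at -0.48 without the first 3-day library (adjusted p = 0.0644). NANS was at -0.41 without the first 3-day library (adjusted p = 0.0508). Without the second 7-day library, NANS was at -0.39 (adjusted p = 0.0721), LGALS9 at 1.36 (adjusted p = 0.0529) and FUCA1 at 0.65 (adjusted p = 0.0921).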

How the results depend on the processing

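Of the 55 calls of glycosyltransferases over the 3 comparisons, 31 held under every alternative in which the gene was tested, 24 ended under at least 1 and none changed direction. Leaving out a library ended 22 of them, no filter on low values 14, limma without the trend 12, equal library totals 3, and a pseudocount of 0.5 and the upper quartile 1 each. Leaving out 1 library gave 6 to 10 glycosyltransferases called higher at 3 days, the fewest without the first 3-day library, and 5 to 12 called higher at 7 days than at 3 days (5 also with no filter on low values). For the pathway lists the leave-one-out ranges of genes called higher were 5 to 12 at 3 days, 11 to 18 at 7 days and 1 to 10 between the times, the lowest without the first 3-day library for the first and without the second 7-day library for the others. The last of these counts was 3 without the trend and 10 with only the 4 libraries compared. Values near 0 changed sign: with equal library totals, ST3GAL4 at 3 days was -0.031 and MGAT4B at 7 days -0.039. Leaving out 1 library gave ranges at 3 days of -0.31 to 0.28 for GALNT6, -0.10 to 0.062 for MGAT4B, -0.049 to 0.10 for ST3GAL4, -0.31 to 0.14 for ST6GAL1 and -0.13 to 0.29 for ST6GALNAC5, at 7 days of -1.03 to 0.97 for FUT2, -0.38 to 0.20 for GALNT6 and -0.054 to 0.072 for MGAT4B, and between the times of -0.053 to 0.11 for MGAT4B. With the replicate block, 10 higher and 8 lower were called at 3 days, 15 and 9 at 7 days and 10 and 2 between the times, and 3 of the 55 calls ended, 2 of MGAT2 and that of ST3GAL5 between the times. The deviations of same-numbered libraries correlated at 0.21, -0.13 and -0.65, so the numbers were not taken as pairs. With the 7-day numbers crossed, an alternative chosen after the data were seen, 6 glycosyltransferases were called lower and 12 pathway genes higher between the times. The cause of these changes was not tested. No scaling moved the median of all genes by over 0.1. For the alternatives, the share of all genes called was not computed, so their counts cannot be set beside it. The deposited values give no reads, so how far depth limits these calls is unknown.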

Other observations

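The second SB library was higher than the first for 7 of the 8 glycosyltransferases that differed by over 0.5 on the log2 scale, namely FUT2, GALNT6, GALNT12, MGAT5, ST6GALNAC1, ST6GALNAC2 and ST8SIA4, and lower for ST3GAL6. The direction of such gaps over all genes was not computed, and the SB values of the keratins and EPCAM are not given by library here. In the second SB library CDH1 was at 635 against 371 in the first, MUC1 at 1289 against 448 and MUC4 at 236 against 78. FN1 and NKX2-1, given above, differed far less between the SB libraries, and SMAD7 was lower in the second. Without that library, 9 glycosyltransferases were called higher and 5 lower at 3 days and 17 and 9 at 7 days.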
